A study of Gallus gallus with 4 samples.

Results

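The 6 genes of mitosis described here gave a higher signal in immortal DF-1 chicken fibroblasts than in primary chicken embryo fibroblasts (CEF). They are TPX2, which builds the spindle, PRC1 and KIF23 of the central spindle, the mitotic kinase PLK1, the transcription factor FOXM1 and the microtubule-severing ATPase KATNA1. The 6 genes were picked by symbol from the study's lists of genes that passed a 2-fold change on these same arrays, and their probes were found by sequence accession. They are 6 of 929 genes with a symbol, and exactly 1 of the 42034 gene probes matched the accession of each. Only 951 gene probes had a symbol, so further probes of these genes under other accessions could have been missed. Because the same ratios chose them, their values are given as a description and carry no test.

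DF-1 is a line that became immortal spontaneously, was started from embryos of the endogenous virus-free Line 0, and was used here after very long passage. The primary CEF cells came from whole 10 day old specific-pathogen free embryos of another source and were used at passage 4, so that cell line, origin and passage differed together and cannot be told apart. Both were grown in the same medium with 10% serum. By the study's account DF-1 cells also divided faster, and growth rate and cell line cannot be told apart on these arrays. RNA of both cell types was hybridized together on each of 4 two-color arrays, DF-1 with Cy5 and primary CEF with Cy3 every time, so any preference of a probe for 1 of the dyes cannot be told apart from a difference between the cells. The study's methods describe 4 biological replicates, and the labels give replicate numbers without saying of what kind. The design text of the record, however, counts a single sample per cell type. If that was so, the spread over n = 4 is technical. The deposited values are ratios of DF-1 over primary CEF, and a log2 ratio of 1 is a 2-fold higher signal in DF-1 cells. They hold no intensities, so levels are unknown, genes are compared here by ratio only, and a mix with more dividing cells cannot be told apart from more RNA per cell.

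Mitosis runs on a burst of transcription late in the cell cycle, followed by assembly of a bipolar spindle, separation of the chromosomes and cleavage of the cell. FOXM1 is a forkhead factor that drives many of the late cell cycle genes in mammals, together with MYBL2 and the MuvB complex. In vertebrate cells TPX2 nucleates microtubules near chromosomes and activates the kinase Aurora A. PLK1 acts from entry into mitosis to cytokinesis. PRC1 crosslinks antiparallel microtubules between the separating chromosomes, and KIF23 is the kinesin of centralspindlin, the complex that organizes the midzone and the midbody. KATNA1 is the catalytic subunit of katanin, which cuts microtubules in dividing cells and in cells between divisions.

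All 6 genes were above a log2 ratio of 1 on every one of the 4 arrays, 24 of 24 values. Their mean log2 ratios lay between 1.22 for PLK1 and 1.93 for TPX2, with a median of 1.70, against a median of 0.22 over the means of all gene probes. In linear terms the means stood for 2.32-fold to 3.80-fold more signal in DF-1 cells. The study's own list gives a lower log2 ratio for each of the 6 genes. Its values lie nearer to the means relative to each array's gene probe median, 1.00 for PLK1 to 1.72 for TPX2. The reason was not tested. The largest values of single arrays were 4.51-fold for FOXM1 and 4.45-fold for PRC1, both on array 4. Over all gene probes, 6.12% were called higher in DF-1 cells by the rule of an unadjusted p under 0.05 in limma and a mean log2 ratio over 1, and 6.06% were called lower. As the lists behind the 6 genes used that contrast, nothing is read from all of them passing it.

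**Figure D1:**
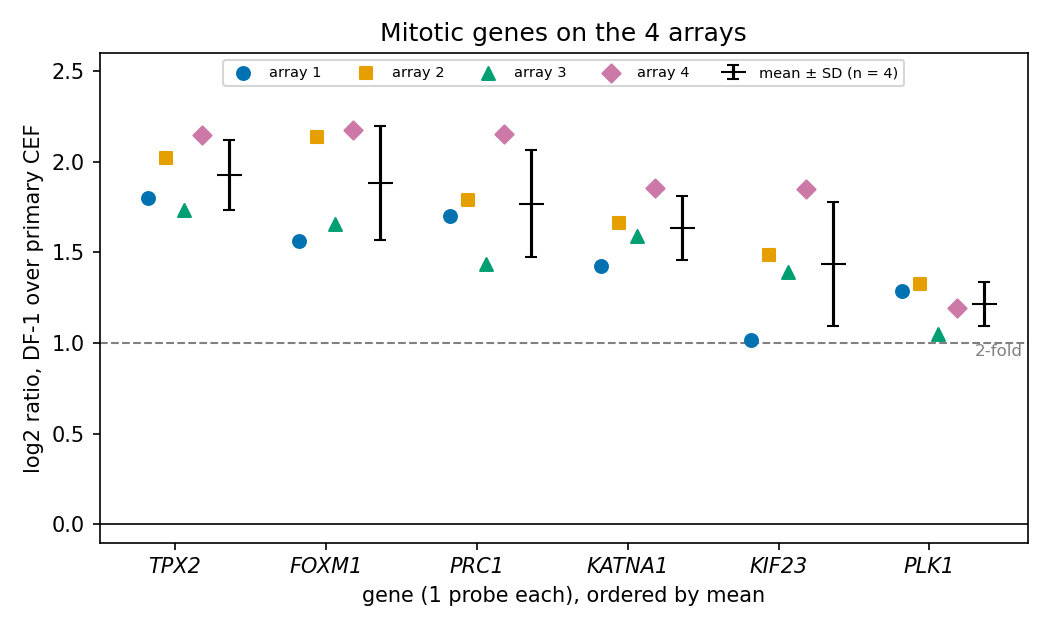
Log2 ratio of DF-1 over primary CEF (vertical axis) for the 6 mitotic genes, ordered by their mean from left to right. Symbols are the 4 arrays, black bars are the mean ± SD (n = 4 arrays), and the dashed line marks a 2-fold difference; every symbol lies above it, with KIF23 on array 1 nearest to it at 1.02.

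TPX2, the spindle assembly factor, had the highest mean of the group. Its probe, A_87_P038097 for the sequence AB101006, read 1.80, 2.02, 1.74 and 2.15 on arrays 1 to 4, a mean log2 ratio of 1.93 ± 0.19 (SD, n = 4 arrays). Arrays 2 and 4 were above arrays 1 and 3, and the whole range of 0.41 was small beside the mean. In the ranking of all gene probes by mean ratio, 491 probes or 1.17% stood above TPX2, and on single arrays the share above it ran from 1.07% to 1.48%. TPX2 was thus close to the same rank on all 4 arrays.

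FOXM1, the transcription factor of the late cell cycle, followed closely. Its probe A_87_P024037 for BX931138 read 1.57, 2.13, 1.66 and 2.17 on arrays 1 to 4, with a mean of 1.88 ± 0.32 (SD, n = 4). The 4 values fell into a lower level on arrays 1 and 3 and a higher level on arrays 2 and 4. This was the widest difference of the group between these pairs of arrays, 0.54 on the log2 scale. FOXM1 was the highest of the 6 genes on arrays 2 and 4, and TPX2 was the highest on arrays 1 and 3.

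PRC1 and KIF23, which meet in the central spindle, had different ratios. The PRC1 probe A_87_P035797 for AJ851410 read 1.70, 1.79, 1.44 and 2.15, with a mean of 1.77 ± 0.30 (SD, n = 4). The KIF23 probe A_87_P036065 for AJ720929 read 1.02, 1.48, 1.39 and 1.85, with a mean of 1.44 ± 0.34 (SD, n = 4). This was the widest spread of the group as deposited, but with array medians set to 0 the SD of KIF23 was 0.14. PRC1 was above KIF23 on each of the 4 arrays, but by as little as 0.04 on array 3 and as much as 0.68 on array 1, with a mean difference of 0.33. Array 4 gave the highest value of both genes. KIF23 on array 1 was also the lowest of the 24 values.

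PLK1, the kinase, had the lowest mean and, in the ratios as deposited, the smallest spread. The probe A_87_P036300 for AJ720598 read 1.29, 1.33, 1.05 and 1.19, with a mean of 1.22 ± 0.12 (SD, n = 4). Only 8.19% of all gene probes had a smaller SD. With array medians set to 0, however, the SD of PLK1 was 0.28, the largest of the 6 genes. PLK1 did not share the pattern of arrays 2 and 4 above arrays 1 and 3, since array 1 was above array 4. It was the lowest of the 6 genes on arrays 2, 3 and 4, and KIF23 was the lowest on array 1. The share of gene probes above PLK1 was 2.72% on array 1 and 8.38% on array 4, so its rank changed more between arrays than that of the other genes.

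KATNA1, the katanin ATPase, lay between these. The probe A_87_P022554 for BX934536 read 1.43, 1.66, 1.59 and 1.86, with a mean of 1.63 ± 0.18 (SD, n = 4). The highest value was again on array 4 and the lowest on array 1. On all 4 arrays KATNA1 was below TPX2 and FOXM1 and above KIF23 and PLK1.

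The order of the means was therefore TPX2, FOXM1, PRC1, KATNA1, KIF23 and PLK1. Most neighbours in it were not separated by the arrays. TPX2 was above FOXM1 on 2 of 4 arrays, with a mean difference of 0.04 ± 0.15 (SD, n = 4). FOXM1 was above PRC1 on 3 arrays (0.11 ± 0.21), and PRC1 above KATNA1 on 3 arrays (0.14 ± 0.21). KATNA1 was above KIF23 on all 4 arrays, though by 0.01 on array 4, and KIF23 was above PLK1 on 3 arrays (0.22 ± 0.39). Of the 15 pairs that the 6 genes form, 10 had the same order on all 4 arrays, among them TPX2 above PLK1 by 0.71 ± 0.18. The ends of the order were thus apart on every array, while the neighbours overlapped. These differences are of ratios and say nothing of how much RNA of each gene the cells held.

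The arrays differed in their general level, and the 6 genes moved partly with it. On arrays 1 to 4, the gene probes had medians of -0.04, 0.20, 0.21 and 0.47, and those of the negative controls, probes that match no transcript, were 0.02, 0.17, 0.38 and 0.53. The mean of the 6 genes was 1.47, 1.74, 1.48 and 1.90 on the same arrays. Taken relative to the gene probe median of its array, the mean of the 6 genes was 1.51, 1.54, 1.27 and 1.43. KATNA1 became nearly level, with values from 1.38 to 1.47 and an SD of 0.05 in place of 0.18. PLK1 did the opposite. Relative to the array medians it read 1.33, 1.13, 0.84 and 0.72, with an SD of 0.28 in place of 0.12, and its mean was 1.00. With the negative control medians set to 0 instead, PLK1 had a mean of 0.94 and no longer passed 2-fold, and the other 5 genes stayed past it, with means from 1.16 for KIF23 to 1.65 for TPX2.

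**Figure D2:**
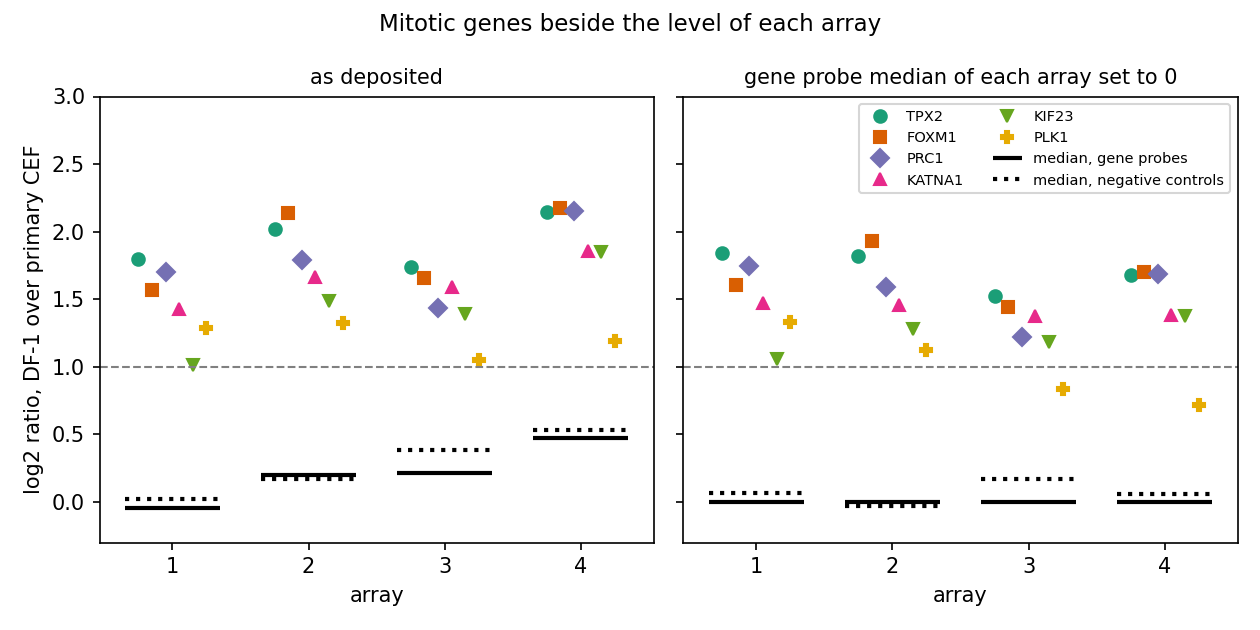
Log2 ratio of DF-1 over primary CEF (vertical axis) of the 6 mitotic genes on arrays 1 to 4 (horizontal axis), as deposited on the left and with each array's gene probe median set to 0 on the right. Bars mark the medians of the gene probes (solid) and of the negative controls (dotted), and the dashed line marks 2-fold; PLK1 falls below it on arrays 3 and 4 after the shift, at 0.84 and 0.72, and the other 22 values stay above it.

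Of the 6 genes, 5 had both arrays 2 and 4 above both arrays 1 and 3, a pattern found in 44.5% of all gene probes and in 64.6% of the 2571 probes called higher. With array medians set to 0, it held for 2 of the 6, FOXM1 and KIF23, for 25.1% of all gene probes and for 35.4% of the probes called higher as deposited. No label of the arrays matches this division. Its part in the values of the 6 genes was not tested. The 100 gene probes nearest in spot number to each of the 6 had median log2 ratios from 0.13 around PRC1 to 0.28 around KIF23, close to the 0.22 of all gene probes.

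Among the probes called higher, the median mean log2 ratio was 1.38, so that 5 of the 6 genes lay above it and PLK1 lay below it. TPX2 was exceeded by 19.1% of them and PLK1 by 67.5%. The spread of the 6 genes over the arrays, 0.12 to 0.34, lay around the median SD of 0.29 of the called probes. Among genes with a symbol, 70 had a higher mean than TPX2 and 345 had a higher mean than PLK1.

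**Figure D3:**
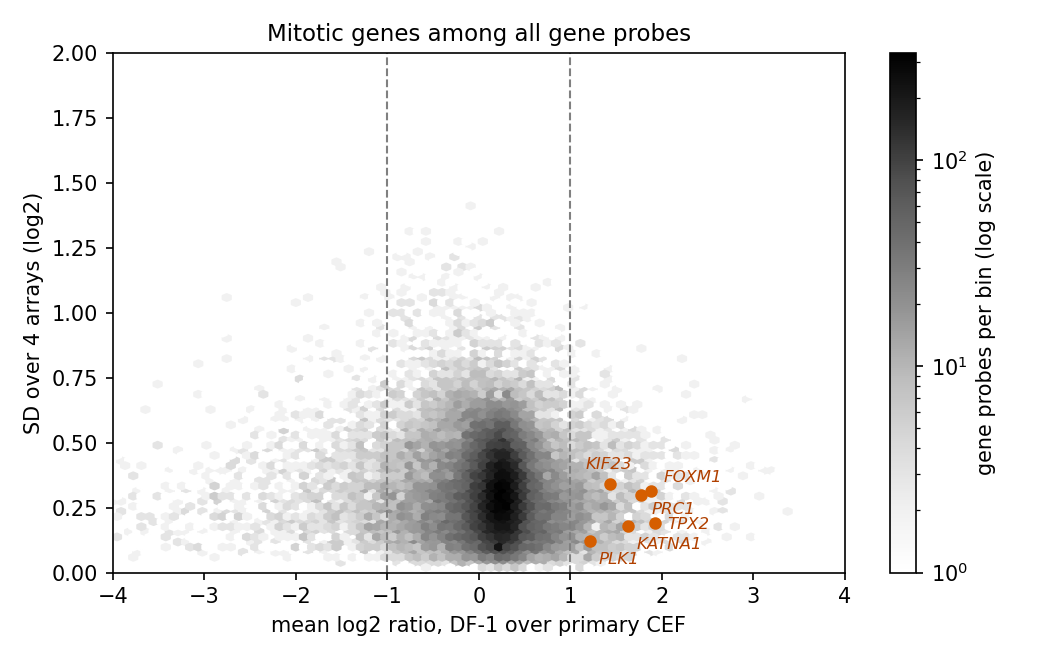
SD over the 4 arrays (vertical axis, log2) against the mean log2 ratio of DF-1 over primary CEF (horizontal axis) for the gene probes, shaded by their number per bin on a log scale, with the 6 mitotic genes in orange and dashed lines at 2-fold; 252 probes lie outside the axes. The 6 genes lie right of the 2-fold line, at SDs between 0.12 for PLK1 and 0.34 for KIF23.

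Other genes were counted from lists of spindle, midzone, kinase, checkpoint, kinetochore and chromosome genes, called the mitosis lists here. They also include microtubule-severing enzymes and regulators of the cell cycle program, E2F1 and E2F8 among them. Of 173 listed genes, 36 had a symbol here. The others may have probes that were left unnamed. Symbols came mostly from the study's lists of changed genes, so unchanged genes could hardly be counted. Besides the 6 genes there were 30, of which 24 were called higher, 5 were called lower and 1, FAM83D, was not called. All 30 owed their symbol to the study's lists of changed genes, and of all probes named from those lists 89.1% were called, 44.8% higher and 44.3% lower. The largest adjusted p (limma, Benjamini-Hochberg over all gene probes) among the called genes was 0.00439, for CHMP2B. As the same ratios had chosen them, the count is no independent evidence of direction. The median mean log2 ratio of the 30 was 1.42. The number of calls among all gene probes depended on the array level, with 2571 higher and 2548 lower as deposited (12.2% in all), against 1749 higher (4.16%) and 3262 lower (7.76%) once the array medians were set to 0 (11.9% in all). With that shift, 22 of the 30 were higher and 6 were lower, since CHMP4B and ZWILCH no longer passed 2-fold and FAM83D did.

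The genes nearest to TPX2 in role were divided. KIF18B, a kinesin that shortens microtubule ends, had a log2 ratio of 1.91 ± 0.31 (SD, n = 4), nearly that of TPX2. KIF11, the motor that pushes spindle poles apart, had 1.40 ± 0.49, and CKAP2, a spindle microtubule protein, had 1.33 ± 0.50. On the other side, STMN1, or stathmin, which destabilizes microtubules, was lower at -1.27 ± 0.62, and TACC2, a protein of centrosomes, was lower at -1.07 ± 0.47. The other probe of TACC2 had -1.03 ± 0.40. FAM83D, which loads a kinesin onto the spindle, had -0.91 ± 0.07 and did not pass 2-fold. Of the 6 other spindle genes with a symbol, 3 were thus higher and 2 lower, out of 34 on the list. All 6 were named from the study's lists, where 44.8% of probes were higher and 44.3% lower. STMN1 ran from -1.83 on array 1 to -0.39 on array 4. Without array 1 the mean of TACC2 was -0.90, and without array 3 it was -0.96, so that it was not called.

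Around PRC1 and KIF23 the list of 23 genes of the central spindle and cytokinesis had 5 other genes with a symbol, 3 of them higher and 2 lower. These 5 also came from the study's lists, where 44.8% of probes were higher and 44.3% lower. DEPDC1B, a protein linked to the detachment of dividing cells, had 1.82 ± 0.51 (SD, n = 4), and CEP55, which recruits the machinery of abscission to the midbody, had 1.60 ± 0.55. Both were higher on arrays 2 and 4, as KIF23 and PRC1 were. Of the ESCRT-III proteins that cut the midbody, CHMP4B had 1.18 ± 0.11 and CHMP2B had -1.14 ± 0.63, opposite in sign. CHMP2B was not called without array 1, where its mean was -0.996, or without array 3, where it was -0.93. MYH10, a non-muscle myosin of the contractile ring, was lower at -1.13 ± 0.33.

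Of 27 listed mitotic kinases, phosphatases and their partners, 4 besides PLK1 had a symbol. These 4 were called higher, with means between 1.21 and 1.71, but all were named from the study's lists, where 44.8% of probes were higher. VRK1, a kinase of chromatin, had 1.71 ± 0.48 (SD, n = 4) and GTSE1, a microtubule protein active in G2, had 1.49 ± 0.21. MELK had 1.25 ± 0.28 and PBK, a kinase active in mitosis, had 1.21 ± 0.23, values within the spread of PLK1. With the negative control medians set to 0, MELK was at 0.98 and PBK at 0.94, just short of 2-fold, as PLK1 was.

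FOXM1 was listed with other regulators of the cell cycle program. MYBL2, the B-Myb partner of the MuvB complex, was above it at 2.41 ± 0.27 (SD, n = 4), with 2.58, 2.23, 2.70 and 2.14 on arrays 1 to 4, so that arrays 1 and 3 were the higher ones here and not arrays 2 and 4. E2F8, a repressor of the E2F family, had 1.96 ± 0.46, and E2F1, an activator of it, had 1.44 ± 0.35. These 3 were the only others of 14 listed regulators with a symbol. All 3 were named from the study's lists of changed genes, where 44.8% of probes were higher and 44.3% lower, so unchanged regulators could hardly appear. Of 40 genes listed as FOXM1 targets from work in mammalian cells, 12 had a symbol, among them TPX2, PRC1, KIF23 and PLK1. Of the other 8, 6 were called higher, and NUF2 of the kinetochore was lower at -1.85 ± 0.10, with FAM83D short of the threshold. The 6 were DEPDC1B, CEP55, TOP2A, GTSE1, CKAP2 and MELK. All 12 had their symbol from the study's lists, where 44.8% of probes were higher and 44.3% lower. They are also on the mitosis lists, so the same genes were already counted above. TOP2A, the topoisomerase that untangles chromosomes, had 1.50 ± 0.17.

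KATNA1 was joined by 1 other enzyme of its kind. FIGNL1, a fidgetin-like ATPase related to the severing enzymes, had 1.72, 1.77, 1.90 and 1.65 on arrays 1 to 4, a mean of 1.76 ± 0.11 (SD, n = 4). It was the only other one of 8 listed with a symbol, which came from the study's lists. Microtubule proteins of the interphase cell were listed as well. Of 18 listed, 8 had a symbol, with 4 higher, 3 lower and 1 not called (3 higher and 4 lower with array medians set to 0), near the 44.8% higher and 44.3% lower among all probes named from the study's lists, from which all 8 had their symbol. KIF3B, a kinesin of intracellular transport, had 1.75 ± 0.43, and TUBB1, a beta tubulin, had 1.47 ± 0.27. TPPP, which bundles microtubules, had -2.20 ± 0.49, MAP2, a microtubule protein of neurons, had -1.82 ± 0.15, and NDEL1, a partner of dynein, had -1.39 ± 0.11.

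Lists of the kinetochore and of the checkpoint were also counted. Of 28 kinetochore and centromere genes, 8 had a symbol, 7 higher and 1, NUF2, lower. ITGB3BP, a centromere protein, had 2.24 ± 0.28 (SD, n = 4), MIS18A, which helps load centromeric histone, had 1.73 ± 0.30, and CENPL had 1.56 ± 0.14. Of 27 genes of the spindle checkpoint and the anaphase-promoting complex, 2 had a symbol. Both were higher, ANAPC5 at 1.49 ± 0.15 and ZWILCH at 1.20 ± 0.26. All of these had their symbol from the study's lists, where 44.8% of probes were higher and 44.3% lower, against 6.12% and 6.06% of all gene probes. Of the 24 other list genes called higher, 19 had arrays 2 and 4 both above arrays 1 and 3, and 10 had it with array medians set to 0. Among all probes called higher, the pattern was found in 64.6%, and in 35.4% after that shift. The nearest list gene inside the 2-fold threshold was CHMP4B at 1.18 on the higher side and TACC2 at -1.07 on the lower side, and FAM83D at -0.91 was nearest outside.

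**Figure D4:**
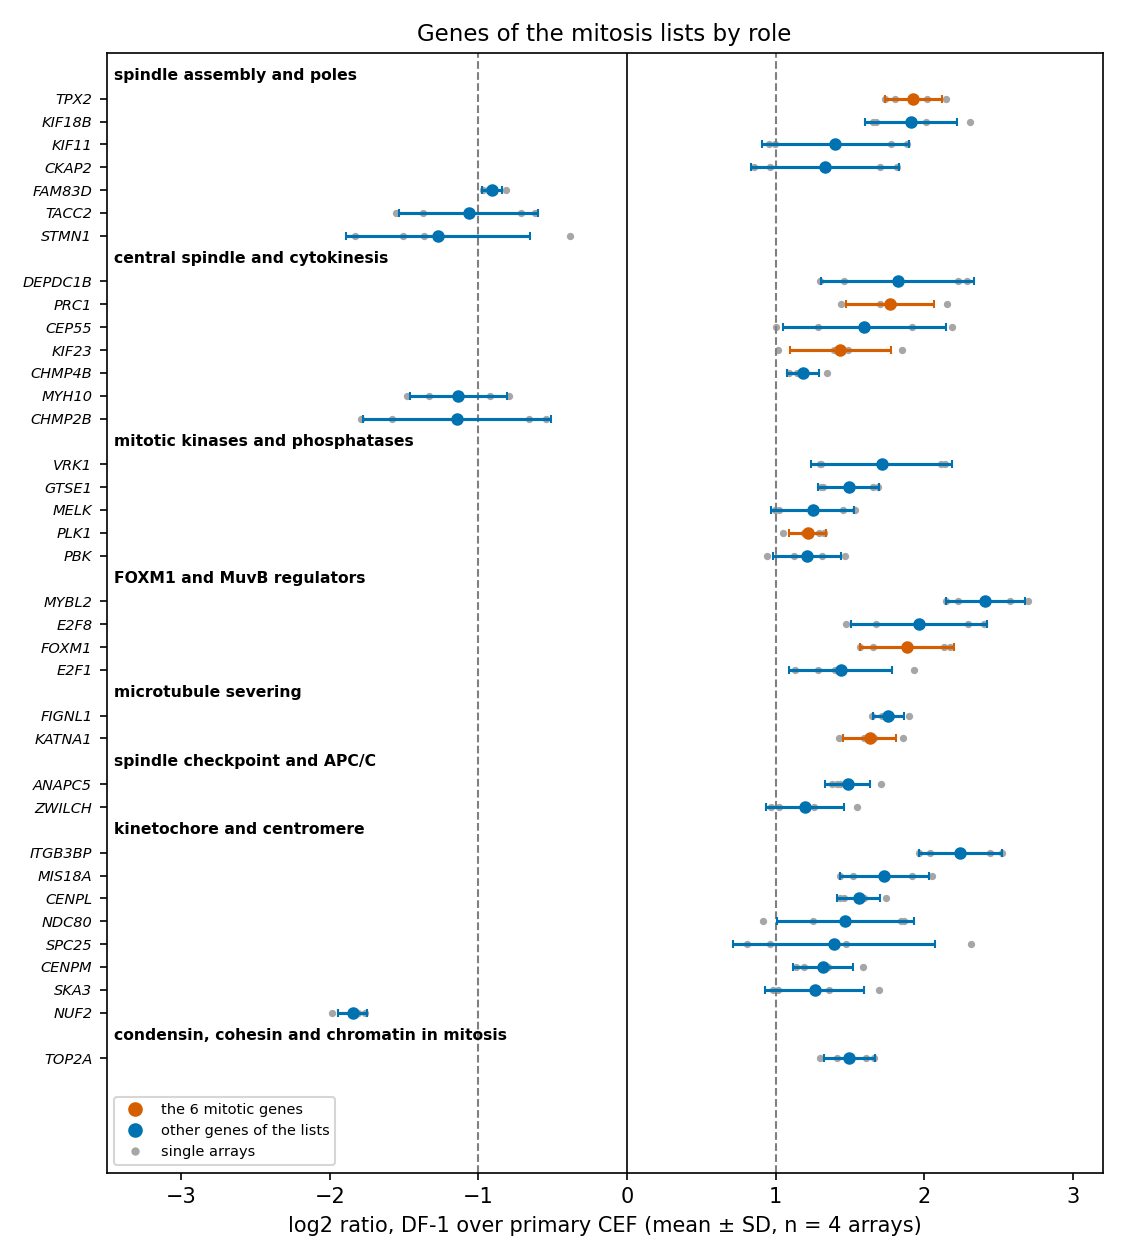
Mean log2 ratio of DF-1 over primary CEF (horizontal axis, ± SD, n = 4 arrays, single arrays in gray) of the 36 genes of the mitosis lists with a symbol, grouped by role, with the 6 mitotic genes in orange and the others in blue. Dashed lines mark 2-fold in each direction; 30 genes lie right of 1, and NUF2 at -1.85 is the lowest.

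The genes whose 4 ratios were most like the mean of the 6 were also looked up. Likeness was the root mean square difference over the 4 arrays, computed for the other 923 genes with a symbol. DARS, the aspartyl-tRNA synthetase, was nearest at 0.04, with 1.52, 1.69, 1.48 and 1.90. MAFK, a small MAF transcription factor, followed at 0.07. TMEM126A, a mitochondrial protein, was at 0.09, as were WIPI2 of autophagy and ARFRP1, a GTPase of the Golgi. Of these 5 genes, 0 are on the mitosis lists, but only 30 of the 923 are, so nothing is read from that count. With 4 arrays, the part of the mean and of the level of the arrays in such likeness was not tested.

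Markers were looked up for the label of fibroblast and for other cell types of an embryo, with ratios only and no levels. Of 39 listed markers, 15 had a symbol, all from the study's lists, with 13 lower and 2 higher, against 44.3% lower and 44.8% higher among all probes named from those lists and 6.06% and 6.12% among all gene probes. All 5 of fibroblasts were lower in DF-1 cells, from DCN, a proteoglycan of the matrix, at -4.66 to FN1, fibronectin, at -1.32, with -2.48 and -2.64 at the other probes of FN1. The markers of muscle (2 of 6), cartilage (2 of 5), endothelium (3 of 6) and neural crest (1 of 3) with a symbol were lower too. CD3E and GYPC of the blood list (2 of 4) were higher, at 1.77 and 1.29, and of the 4 epithelial markers 0 had a symbol. These ratios alone cannot tell a difference in cell types from a change of the marker genes within the same cells. Whether cell types differed, and any part of that in the ratios of the 6 mitotic genes, was not tested.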

How the data were processed

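Per the study's methods, the authors used Cy5 for cRNA of DF-1 cells and Cy3 for that of primary CEF cells, hybridized Agilent chicken oligo arrays, corrected intensities for background and normalized within each array by loess. They deposited a linear ratio for each spot on each array (DF-1 over primary CEF), and a table of log2 ratios, which equaled the log2 of the linear values to within 5.0e-05. The gene probe medians of the deposited log2 ratios were -0.04, 0.20, 0.21 and 0.47 on arrays 1 to 4. Whether the deposited ratios are the values after loess was not tested. The mean and SD columns deposited beside the ratios were not used.

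The log2 of the linear ratios of 42034 gene probes was used with no further scaling, control spots left out, with 0 missing. A mean per probe over 4 arrays was tested against 0 with limma 3.58.1 (R 4.3.3), 2-sided. Calls needed a mean past 1 or -1 on the log2 scale and p under 0.05 before adjustment, as in the study's methods. The counts differed from the study's, which reported fewer genes in total and more lower than higher. Here 2571 probes were called higher and 2548 lower. With array medians set to 0, 1749 were higher and 3262 lower, so that more were lower, but the total of 5011 was still above the study's. The reason for the difference was not tested. Depth does not apply to arrays, and the number of arrays limits the precision. Symbols came by accession from the study's lists of changed genes (902 probes) or from RefSeq accessions alone (49), in all 929 genes, and older symbols added 0 list genes. With several probes the first by name was counted. The fit was tested on simulated data whose changes were larger than the means of the mitotic genes described here. Calls of changes near the threshold were thus not tested. Tables used Python 3.11.15, numpy 2.4.6 and pandas 2.3.3.

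The members and gene lists were chosen with earlier results of these data known. Named were the 6 genes, at most 4 called genes per list with the largest change, the 5 genes most like the 6, and the list genes nearest to the threshold. Outside that rule, STMN1, MYH10, CHMP2B, PBK, NDEL1 and FN1 were named after their values were seen. Alternatives were array medians of gene probes or negative controls set to 0, adjusted p, robust variances, limma's treat, no fold threshold, the log2 table, medians, means over probes, and each array left out.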

Additional observations from a re-analysis of the deposited data

Results flagged for a closer look

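Over the 4 arrays, the 6 mitotic genes and the other listed genes with a symbol were examined for a single array far from the rest, 59 genes in all. ANAPC5, a subunit of the anaphase-promoting complex, had a log2 ratio of 1.71 on array 2, against 1.38 to 1.43 on the other arrays. The gap took 0.85 of the whole range, above Dixon's critical value for 4 samples. Chance alone marks about 1 in 20 genes. Of the 6 mitotic genes, 0 were marked.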

How the results depend on the processing

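Only the 2 shifts of array level could bring a mean of the 6 mitotic genes under a log2 ratio of 1. With gene probe medians at 0, all 6 stayed over 1, with PLK1 at 1.00. With the negative control medians set to 0, 5 did and PLK1 was at 0.94. As all 24 values were above 1, with 1 probe per gene, the other ways of averaging could not fail. These were leaving out an array, the median, the mean over probes and the log2 table. Settings of the test, such as adjusted p or treat, do not change a mean. The means moved by more than 1 SD for TPX2, KATNA1 and PLK1. They were 1.72, 1.42 and 1.00 with gene probe medians at 0, and 1.65, 1.36 and 0.94 with negative control medians at 0. Each shift took the same amount off all 6 means, so which of them passed 1 SD was set by their SDs as deposited. Those were 0.19 for TPX2, 0.18 for KATNA1 and 0.12 for PLK1, against 0.30 for PRC1, 0.32 for FOXM1 and 0.34 for KIF23. With 1 array left out, the means ran from 1.85 to 1.99 for TPX2, 1.79 to 1.99 for FOXM1, 1.64 to 1.88 for PRC1, 1.56 to 1.70 for KATNA1, 1.30 to 1.58 for KIF23 and 1.18 to 1.27 for PLK1. Among all gene probes, 2571 higher and 2548 lower as deposited, 1545 were called higher and 3577 lower with negative control medians at 0, 1491 higher and 1820 lower with limma's treat against 2-fold, and 12421 higher and 5631 lower with no fold threshold. Of the 36 mitosis list genes, 30 higher and 5 lower as deposited, 24 were higher with negative control medians at 0, and 22 higher and 1 lower with treat. With 1 array left out, 30 were higher and 3 to 5 lower. With adjusted p or robust variances the counts of list genes were the same. The 36 include the 6 genes, and all had their symbol from the study's lists of changed genes. Of the probes named there, 44.8% were called higher and 44.3% lower as deposited, against 6.12% and 6.06% of all gene probes. As the same ratios had chosen these genes, their counts under any setting are no independent evidence of direction. Each array holds both cell types, so the test of its log2 ratio against 0 is already paired within arrays. With 1 group of arrays no further pairing was possible. The lack of intensities leaves signal over background unknown, so dim probes could not be left out.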
